A study of Danio rerio with 3 samples.

Results

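The cells described here are the mature, myelinating oligodendrocytes of the adult zebrafish telencephalon, the forebrain region that holds the pallium. They were picked from a single-cell RNA sequencing experiment by their own transcripts: 388 of the 19102 cells that passed the filters had UMIs (unique molecular identifiers, 1 per captured transcript molecule) of at least 3 of the 5 genes mbpa, mpz, plp1b, cldnk and mag, at least 5 UMIs of these genes in total, and at least 2 UMIs of mag and cldnk together. A cell passed the filters with at least 200 detected genes and at most 10% mitochondrial UMIs. All cells came from Tg(sox2:gfp) fish, a line in which GFP marks sox2-expressing neural stem cells and progenitors, at an age of 12 weeks. All fish had been bathed in LY-411575 (10 µM), an inhibitor of the γ-secretase that releases the active part of Notch receptors. The bath lasted 24 h by the study's methods and 48 h by the series description. On each of 3 days the telencephala of a pool of adult fish were dissociated, GFP-positive cells were sorted and mixed with GFP-negative cells, and 1 droplet library was made, so a replicate is a sorting day with its own fish and library. No untreated sample was analysed, so the comparisons are between cell groups within the treated fish, and the share of a cell type is set by the sort as well as by the tissue. The 3 libraries held 15050320, 13048298 and 12104324 UMIs, of which the oligodendrocytes held 393145, 501503 and 475564.

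Oligodendrocytes wrap axons of the central nervous system in myelin, a stack of lipid-rich membrane that speeds the conduction of action potentials. They arise from oligodendrocyte precursor cells (OPCs), pass through a premyelinating stage in which they extend many processes, and then make large amounts of a few myelin proteins together with the cholesterol, galactolipids and very-long-chain fatty acids of the sheath. Of the genes that chose the cells, mbpa encodes myelin basic protein, which zips the membrane layers together from the inside, plp1b the proteolipid protein of compact myelin, and mpz myelin protein zero, an adhesion protein that fish, unlike mammals, also use in central myelin. The gene cldnk encodes a claudin of the tight junctions of fish myelin, and mag the myelin-associated glycoprotein of the membrane that faces the axon.

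There were 145, 132 and 111 oligodendrocytes in replicates 1, 2 and 3, which was 1.84%, 2.18% and 2.14% of the filtered cells (2.06% ± 0.188, SD, n = 3). The exact 95% binomial intervals, which cover counting error only, were 1.55% to 2.16%, 1.83% to 2.59% and 1.77% to 2.58% and overlapped between all replicates. The 5 marker genes held a median of 14.9% of a member's UMIs, with a range from 0.0432% to 28.1%. Of the members 59 were under 5% (17, 16 and 26 in replicates 1, 2 and 3), and 13 of these were under 1%. Among the 18714 other cells, 51.9% had no UMI of any of the 5 genes and only 2 were above 5%, while 89 lay between 1% and 5%. The members and the other cells thus overlapped at low shares. Near its limits the rule took in 1 member with exactly 5 marker UMIs and left out 3 cells with 4 that met the other conditions. It took in 12 members with exactly 3 of the genes and left out 8 cells with fewer, and 9 members had exactly 2 UMIs of mag and cldnk while 100 cells failed on that condition alone. Those 100 cells had a median of 8 marker UMIs, or 0.309% of their UMIs.

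Since the 5 genes chose the cells, their levels are given as a description, with no test. In counts per 1000000 UMIs of the group (CPM), plp1b was at 65798, 77363 and 59027 in the members of replicates 1, 2 and 3, and at 296, 374 and 436 in all other cells. The gene mpz was at 27674, 27226 and 22378, against 53.2, 58.7 and 56.0. The gene mbpa was at 25202, 22999 and 19127, against 92.5, 86.8 and 80.6. All of these lay far apart between the groups in every replicate, with replicate 3 the lowest of the members. The tight junction gene cldnk was at 11197, 8403 and 8459, against 22.4, 24.7 and 26.9. The gene mag was at 318, 283 and 170.3, against 6.42, 5.34 and 4.46, and was the gene that most members lacked when each cell was thinned to 1000 UMIs. At that depth 22% ± 7.13 (SD, n = 3) of the members had a mag UMI (49.5% without thinning), while 97.3% ± 1.51 had a cldnk UMI (100% without thinning) and 99.0% ± 0.903 a plp1b UMI (99.8%). Free RNA in a droplet can give such UMIs to any cell. Among microglia-like cells, which should lack myelin transcripts, 1.76% had a cldnk UMI, 7.97% an mbpa UMI and 16.1% a plp1b UMI at the same depth. Thinning left out 38 members and 4136 other cells with under 1000 UMIs. The median depth before thinning was 3043.5 UMIs in members, 1609 in other cells and 1431 in microglia-like cells.

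**Figure D1:**
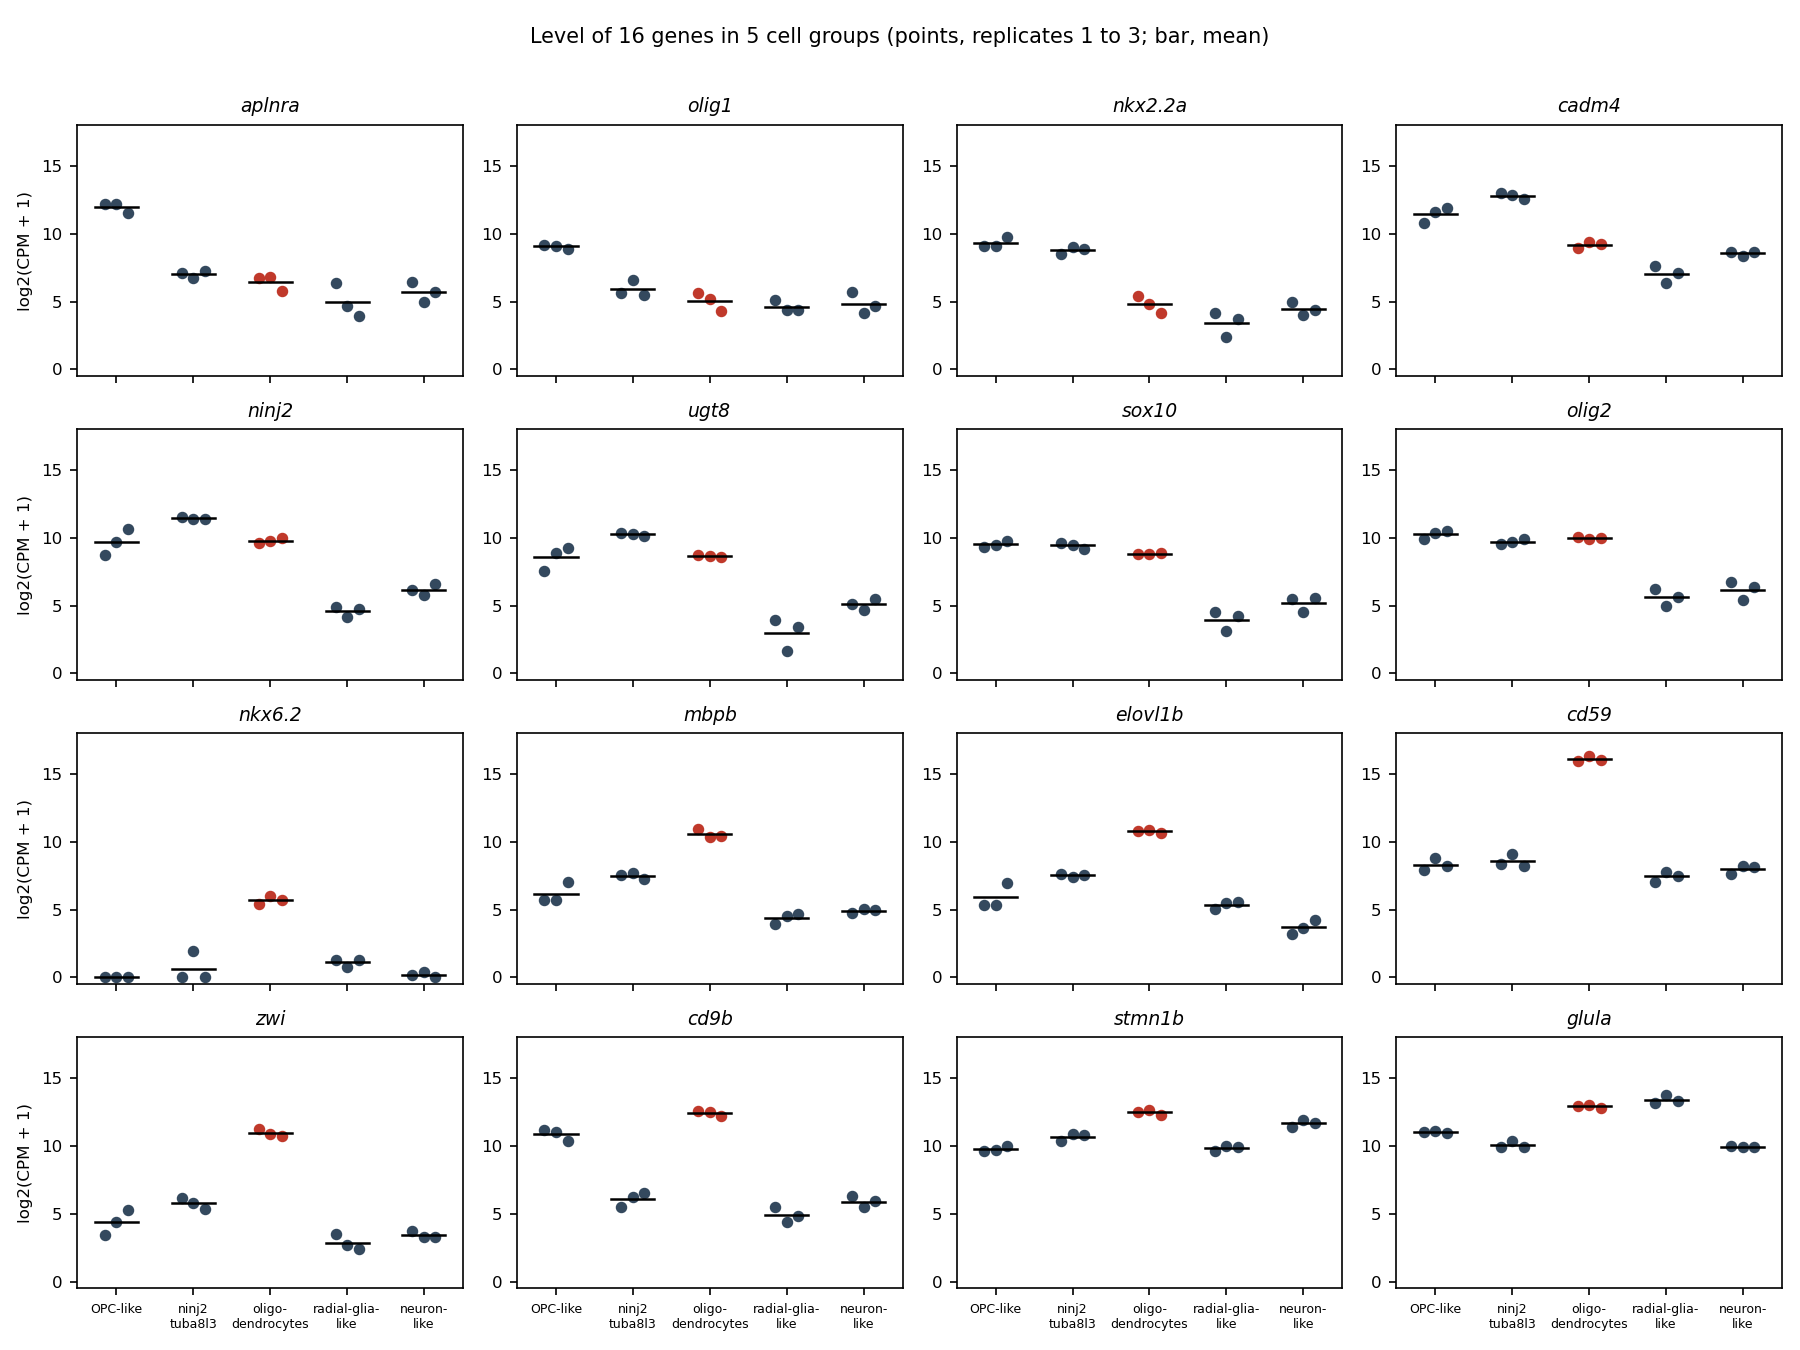
Level of 16 genes, as log2(CPM + 1), in OPC-like cells, ninj2 tuba8l3 cells, oligodendrocytes, radial-glia-like cells and neuron-like cells, groups that are defined in the text, with 1 point per replicate (red in oligodendrocytes) and a bar at the mean. The genes zwi, cd9b, cd59, mbpb and elovl1b were highest in oligodendrocytes, aplnra, olig1 and sox10 were above the oligodendrocytes in OPC-like cells, and cadm4 and ninj2 were highest in ninj2 tuba8l3 cells. Of these, aplnra, olig1 and sox10 belong to the rule that chose the OPC-like cells, and ninj2 to the rule that chose the ninj2 tuba8l3 cells.

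Beyond the 5 genes of the rule, the members carried the oligodendrocyte transcription factors olig2 and sox10 and the myelin genes described next, as the label oligodendrocyte implies. Markers of other cell types were checked as whole lists. Microglial markers summed to 18.9 to 39.9 CPM in members against 227 to 639 in other cells, with 3 of 12 at 0. Endothelial markers summed to 0 to 2.1 CPM, against 2.86 to 5.07 in other cells, with 5 of 6 at 0. Erythrocyte markers (globins and alas2) summed to 89.0 to 668 CPM against 293 to 14055 in other cells, both with replicate 2 the highest. Radial glia markers summed to 1141 to 1577 CPM against 5615 to 7194. Markers of T and NK cells summed to 91.6, 51.8 and 0 CPM in members and to 11.03, 77.6 and 25.4 in other cells, with 4 of 6 at 0 in members, so the groups overlapped. In the mural list acta2, smooth muscle actin, was at 20.3, 39.9 and 14.7 CPM against 0.349, 0.404 and 0.525 (log2 fold change 6.16 ± 0.58, SE, adjusted p = 4.19e-15), while pdgfrb and tagln, the pericyte and smooth muscle markers beside it, were lower. Neuronal markers summed to 7139 to 7900 CPM in members and 6268 to 7468 in other cells, but most of this was 1 gene, stmn1b: the other 9 markers came to 1994, 1643 and 2120 CPM in members against 5381, 4260 and 3838 in other cells. By the marker rules used for the other classes, 74.0% of the members also met the neuron rule, as did 72.8% of other cells (37.4% and 56.2% when stmn1b was not counted), 36 met the radial glia rule, 53 the OPC rule and 0 the microglia rule. Each pair of libraries shared 49 to 68 cell barcodes, of which at most 1 was a member in both. The part of free RNA or of mixed barcodes in any difference was not tested, and counts without the members that met another class's rule are given where they changed a result.

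The members were then compared with all other filtered cells, with UMIs summed per replicate, in edgeR's quasi-likelihood test with the replicate as a block and Benjamini-Hochberg adjustment over the 14082 genes tested. In oligodendrocytes 2007 genes were higher (14.3%) and 2599 lower (18.5%), and 378 and 268 of them by more than 8-fold. These percentages are the background for the lists of genes that follow. The median log2 fold change over all genes tested was -0.24. It was -0.59 when libraries were scaled by their totals alone. The 5 markers and cd59 held 19.4%, 22% and 17.5% of the members' UMIs in the 3 replicates and 0.0651%, 0.0829% and 0.0834% of the other cells'. With that scaling 24.9% of the called genes were higher in oligodendrocytes, against 43.6% in the fit described here. With the 294 members left out that met the rule of any other class, mostly the neuron rule, 656 genes were higher.

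Among the 12 genes with the largest rise, crp1, which belongs to the C-reactive protein family, was at 1190.4, 778 and 399.5 CPM in members and at 1.40 to 1.89 in other cells (log2 fold change 9.20 ± 0.19, adjusted p = 2.12e-55). Its spread over replicates was wide, but the members and the other cells did not overlap. The connexin gene cx47.1 was at 168, 189 and 196 CPM against 0.404 to 0.628 (8.75 ± 0.26), and the connexin cx27.5 at 778, 849 and 807 against 4.04 to 5.68 (7.74 ± 0.17). Connexins form the gap junctions that couple glia to each other and link the layers of the sheath. The gene cd59, a membrane protein that blocks the complement attack complex and a known marker of fish myelinating glia, was at 63725, 83246 and 65657 CPM against 181 to 279.7 (8.63 ± 0.13). After thinning a cd59 UMI was found in 98.6% of members (99.5% without thinning) and in 18.9% of microglia-like cells. The remaining genes of the 12 were csrp1b (a LIM-domain protein), fabp2 (a fatty acid-binding protein), pkd1l2a, glipr2l, htra1a (a secreted serine protease), cdaa (cytidine deaminase), galnt6 (an O-glycosylation enzyme) and zwi, with log2 fold changes from 7.69 to 8.27. The gene zwi, which encodes the Zwilling proteins of fish myelin, was at 2373, 1838 and 1684 CPM against 8.65 to 12.8, and had a UMI in 75.3% of thinned members (88.6% without thinning) against 0.900% of other cells and 0.358% of microglia-like cells.

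All 8 genes named on the other side had no UMI at all in the members, so only a lower bound against a floor of 3 UMIs over the members can be given. The cytokine gene tnfb was at least 8.42-fold lower, phyhd1 at least 6.49-fold, rergla at least 6.11-fold, nog3 (a secreted BMP antagonist) at least 5.17-fold, bmp2b at least 4.78-fold, c1qb (complement, made by microglia) at least 4.58-fold, znf503 at least 4.46-fold and cbsa (a transsulfuration enzyme) at least 4.4-fold. In the other cells these genes were at 9.79 to 18.8 CPM on average. Without the 294 members that met another class's rule, each of these 8 missed the threshold, as c1qb did without replicate 2 and rergla (-0.98) and znf503 (-0.54) did without the condition on mag and cldnk.

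Structural genes of the sheath and of the paranode, where the sheath attaches to the axon, were mostly higher. Of 19 tested (from 27 listed, the 5 chosen markers apart), 10 were higher, 3 were lower and 6 did not pass the test, with a median log2 fold change of 1.06 beside -0.24 over all genes. The second myelin basic protein gene, mbpb, was at 1964, 1278 and 1350.0 CPM in members and at 27.6, 34.4 and 31.5 in other cells (5.94 ± 0.15, adjusted p = 1.15e-49). The second proteolipid gene, plp1a, was at 298, 327 and 263 CPM against 14.7 to 27.4 (4.29 ± 0.17). The groups did not overlap for either gene. The claudin cldn19 (4.77 ± 0.17), the paranodal scaffold epb41l3a (4.79 ± 0.17), the adhesion gene nfasca (1.78 ± 0.13), which is known for its glial form at paranodes and its neuronal form at nodes, and the tetraspanin tspan2a (3.28 ± 0.12) were higher as well. Tspan2a was at 3546, 2993 and 2839 CPM against 386 to 439. The adhesion gene cadm4 overlapped between the groups (483, 678 and 589 CPM against 437 to 589.7) and its rise of 0.50 ± 0.13 (adjusted p = 0.00134) missed the threshold under 6 of the settings tried, the fit without replicate 2 (0.21) and that without the block (0.49) among them. The 3 lower genes were pmp22a, with 2 UMIs in members (8.30-fold lower, counting interval 2.29 to 68.8, a call lost without replicate 2, at -2.32, or replicate 3, at -2.82), the proteolipid relative gpm6aa (-1.62 ± 0.14) and cnp (-1.24 ± 0.17). In mammals CNP is one of the major non-compact myelin proteins. Here the gene listed as cnp was at 43.2, 89.7 and 101 CPM in members and at 179, 259 and 261 in other cells, with no overlap.

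**Figure D2:**
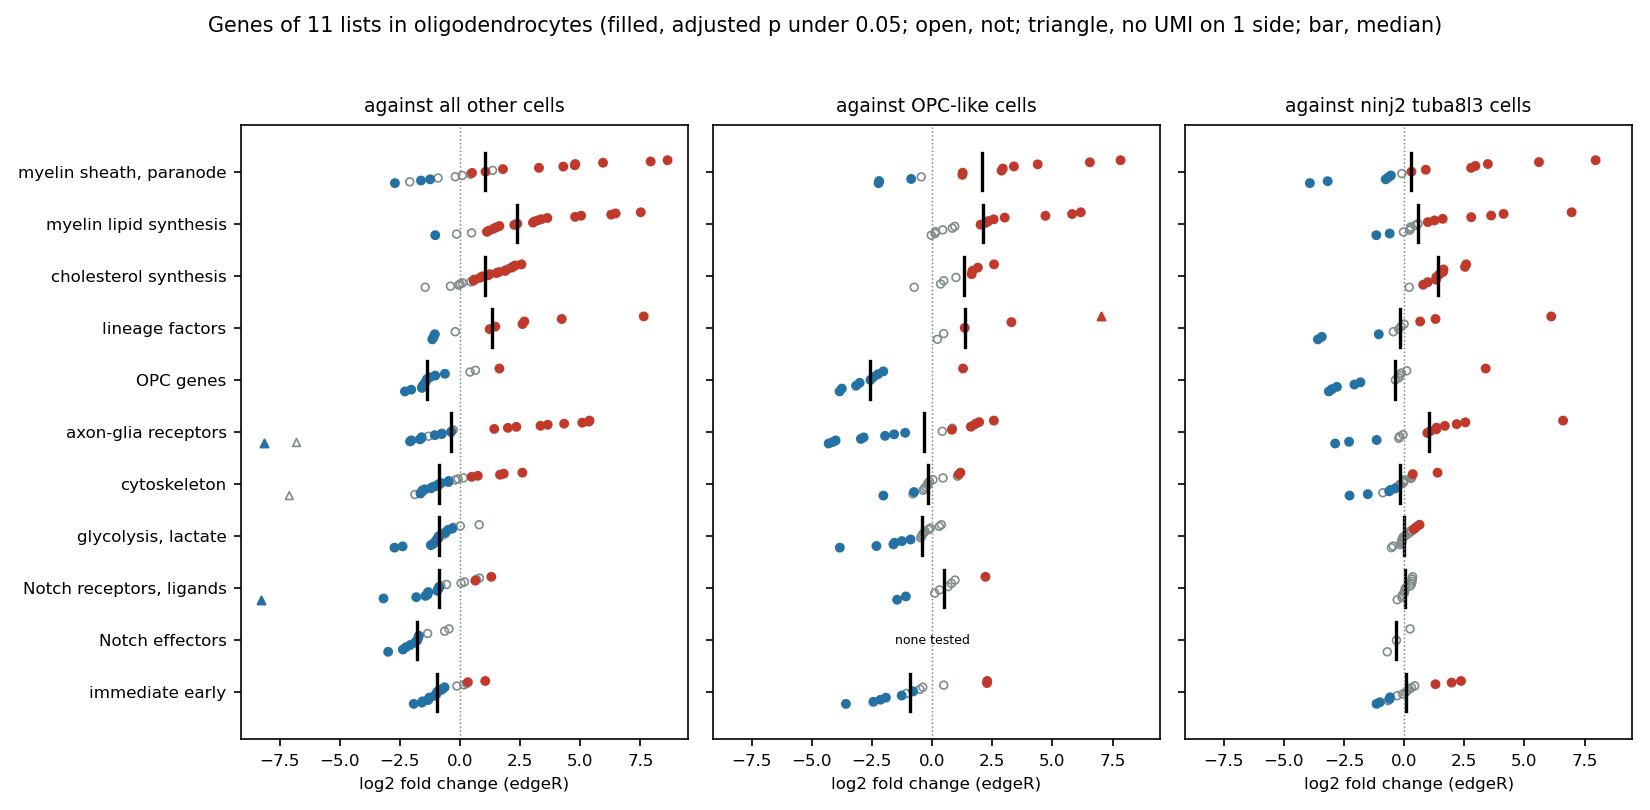
Log2 fold change of every tested gene of 11 lists in oligodendrocytes against all other cells, OPC-like cells and ninj2 tuba8l3 cells (3 panels). Each symbol is 1 gene, filled where its adjusted p was under 0.05, open where not and a triangle where 1 side had no UMI, and the bar is the list's median, for example 2.38 for lipid synthesis and 1.05 for cholesterol synthesis against all other cells.

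Genes that make the lipids of myelin rose with the proteins. Of 21 tested, 17 were higher, 1 was lower and 3 did not pass, with a median of 2.38. The elongases of very-long-chain fatty acids led: elovl1b was at 1745, 1888 and 1571 CPM in members against 17.9, 26.9 and 31.5 in other cells (6.47 ± 0.15, adjusted p = 2.38e-51), elovl7a at 506, 636 and 486 against 3 to 4.37 (7.51 ± 0.17) and elovl1a at 193, 275 and 212 against 2.72 to 4.85 (6.28 ± 0.19). The members did not overlap with the other cells for any of them. The 3 steps that give galactocerebroside and sulfatide, the typical galactolipids of myelin, were all higher: fa2h, which hydroxylates the fatty acid (4.78 ± 0.30), ugt8, which adds the galactose (3.03 ± 0.15), and gal3st1a, which adds the sulfate (5.03 ± 0.26). The ugt8 gene was at 432, 401 and 383 CPM against 47.4 to 85.7. The stearoyl-CoA desaturase scdb was at 1531, 1188 and 1079 CPM against 108 to 168 (3.63 ± 0.13). The exception was fads2, which desaturates polyunsaturated fatty acids (-1.03 ± 0.20, adjusted p = 2.38e-05), and whose CPM overlapped between the groups (28, 39.9 and 67.3 against 60.0, 139 and 149). It missed the threshold without the replicate block (-1.01, adjusted p = 0.0929). Fatty acid synthase, fasn, was at 56.0, 59.8 and 27.3 CPM against 40.5 to 45.9 (0.48 ± 0.23, adjusted p = 0.107), and passed the threshold as higher under 4 settings, that without replicate 3 (0.78) among them.

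Of 22 cholesterol synthesis genes tested, 13 were higher and the other 9 did not pass, with a median of 1.05. The rate-limiting reductase hmgcrb was at 119.5, 93.7 and 77.8 CPM against 31.0 to 36.9 (1.88 ± 0.19, adjusted p = 1.19e-13). The regulator insig1, which holds the pathway's transcription factor in the endoplasmic reticulum when sterols are plentiful, was at 422, 425 and 370.1 against 90.6, 125 and 137 (2.15 ± 0.14), and that factor, srebf2, at 132, 134 and 92.5 against 53.1 to 80.8 (1.17 ± 0.18). In none of these did the groups overlap. Further along the pathway mvda (2.30 ± 0.32), lss (2.55 ± 0.49) and cyp51 (1.63 ± 0.25) were higher. The count fell to 8 of 22 when libraries were scaled by their totals alone and to 3 of 18 without the 294 members that met another class's rule. The calls of srebf2, mvda and lss were among those lost without these members. DESeq2 called 8 of 21 as higher. Against radial-glia-like cells, a reference used again further below, 5 of 17 tested were higher, 1 was lower and 11 did not pass, with a median of 0.13. Of all genes tested against that reference 23.3% were higher and 24.6% lower. The list summed to 699 to 1042 CPM in those cells and to 932 to 1286 CPM in members, with overlap.

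Of 10 transcription factors of the lineage tested, 6 were higher and 3 lower. The basic helix-loop-helix factor olig2, needed for the lineage, was at 1078, 937 and 1001 CPM against 169.6 to 229.7 in other cells (2.67 ± 0.12), and sox10, which drives myelin genes directly, at 435, 435 and 463 against 76.2 to 108 (2.6 ± 0.14). Both sat apart from the other cells in every replicate. The myelin regulatory factor myrf was at 122, 104 and 31.5 CPM against 5.16 to 6.06 (4.23 ± 0.28), with replicate 3 far below the other two. The homeobox gene nkx6.2, which in mice is needed for normal paranodes, was at 40.7, 63.8 and 52.6 CPM against 0.262 to 0.349 (7.63 ± 0.47), and tcf7l2, a Wnt pathway factor of the differentiation step, rose by 1.47 ± 0.25 and zeb2a by 1.23 ± 0.14. Without the 294 members that met another class's rule tcf7l2 (0.49) and zeb2a (0.68) missed the threshold. The call of tcf7l2 was also lost with members of at least 5% marker UMIs (0.68). The 3 lower genes were olig1 (48.3, 35.9 and 18.9 CPM against 74.5 to 122, -1.15 ± 0.22), nkx2.2a (-1.05 ± 0.24) and zeb2b (-1.10 ± 0.20). Without the condition on mag and cldnk the calls of olig1 (-0.26) and nkx2.2a (-0.077) were lost.

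Genes of OPCs were lower. Of 14 tested, 10 were lower, 1 was higher and 3 did not pass, with a median of -1.39. The apelin receptor gene aplnra, a fish OPC marker, was at 107, 112 and 54.7 CPM against 255, 287 and 510.4 (-1.56 ± 0.17), aplnrb fell by 1.58 ± 0.23 and sox6, a factor that holds precursors back from differentiation, by 1.37 ± 0.19, a call lost without the condition on mag and cldnk (-0.30). The exception was the receptor phosphatase ptprz1b, at 104, 91.7 and 54.7 CPM against 32 to 36 (1.64 ± 0.20). Of 6 premyelinating genes 4 were higher, led by ninj2 (778, 865 and 1011 CPM against 98.2 to 199, 3.05 ± 0.13) and tuba8l3 (1496, 1137 and 1268 against 107 to 255, 3.23 ± 0.14), followed by rras2 and fyna, and 2 were lower, sema5a (-1.09 ± 0.18) and enpp6, of which a single UMI was found in the members. The calls of rras2 and enpp6 were lost without the members that met another class's rule, and that of sema5a without the condition on mag and cldnk (-0.30). UMIs of both ninj2 and tuba8l3, at least 3 in all, were found in 57.5% of the members, against 2.24% of other cells, without thinning.

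A closer reference for the members was the set of 427 OPC-like cells, which had UMIs of at least 3 of 9 OPC markers and at least 4 UMIs of these, and met no other class's rule. Their median depth was 1211 UMIs, against 3043.5 in the members, and their 3 sums hold 233, 68 and 126 cells. Outside the members 1784 cells met the OPC rule, of which these 427 were kept, and 1304 would be kept if the neuron rule were allowed. Members that met another class's rule were not left out of this comparison. This comparison and the ones that follow share the members' sums with the first. Of 4402 genes tested, 802 (18.2%) were higher and 865 (19.7%) lower in oligodendrocytes, around a median of 0.05. OPC markers used to pick those cells, olig1, olig2, sox10, nkx2.2a and the apelin receptors among them, are not tested here. As values, olig2 and sox10 were at 934 to 1447 and 643 to 844 CPM in OPC-like cells, the first overlapping with the members and the second above them, while aplnra was at 2985 to 4668 CPM there and at most 112 in members.

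Against OPC-like cells the sheath list had 8 genes higher and 3 lower of 12, and the lipid list 8 higher of 14 with the other 6 not past the threshold. The elongase elovl1b was at 40.0, 40.2 and 124 CPM in OPC-like cells (log2 fold change 4.71 ± 0.31, adjusted p = 9.38e-08), and mbpb at 50.01, 50.3 and 129 (4.39 ± 0.30). In contrast ugt8 was already at 183, 473 and 597 CPM in OPC-like cells, on either side of the members' 383 to 432 (0.14 ± 0.28, adjusted p = 0.739), and among cells with at least 2000 UMIs it passed as lower (-1.10). The adhesion gene cadm4 was lower in members than in OPC-like cells, which had 1750.3, 3089 and 3786 CPM (-2.20 ± 0.19). Of the factors, nkx6.2 had no UMI in OPC-like cells, which makes it at least 10.4-fold higher in members, and tcf7l2 had 3 (9.54-fold, counting interval 3.13 to 47.4). For myrf (1.35 ± 0.41, adjusted p = 0.0189) OPC-like cells had 23.3, 80.5 and 16.1 CPM, overlapping with the members, and its call was lost without the block, with DESeq2 and without replicate 1 (0.69). Among cells with at least 2000 UMIs its log2 fold change was -0.18. The call of tcf7l2 was lost among those cells as well.

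Of 9 OPC genes tested, 8 were lower than in OPC-like cells, with a list median of -2.56, and again ptprz1b was higher (1.29 ± 0.36), a call lost without replicate 2 (1.19), without the condition on mag and cldnk (0.97) and with DESeq2 (1.37). The largest falls were those of cspg5b (-3.85 ± 0.38) and nxph1 (-3.75 ± 0.40). The adaptor gene traf4a was at 900.2, 1338 and 1339 CPM in OPC-like cells and at 127, 119.6 and 135 in members, with no overlap (-3.16 ± 0.21). Lower as well were lhfpl3 (-3.01 ± 0.33), sox6 (-2.56 ± 0.26) and the proteoglycan genes cspg5a (-2.25 ± 0.33) and vcanb (-2.03 ± 0.32). The call of cspg5a was lost among cells with at least 2000 UMIs (-0.78). The premyelinating gene sema5a was at 1847, 2062 and 1108 CPM in OPC-like cells and at 57.8 to 83.9 in members (-4.57 ± 0.24). By contrast ninj2 (0.12 ± 0.23) and tuba8l3 (0.30 ± 0.26) did not pass the test. Their levels in OPC-like cells ran from 427 to 1613 and from 637 to 2044 CPM over the replicates, so the OPC-like replicates spread on both sides of the members. Without replicate 3 both passed as higher (0.56 for ninj2, 0.82 for tuba8l3), and among cells with at least 2000 UMIs both passed as lower (-1.09 and -1.23).

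The 12 genes named for the largest rise over OPC-like cells were nearly all at 0 UMIs there. The transmembrane gene tmem237a was at 361, 225 and 193 CPM in members and at least 49.4-fold higher, pkd1l2a at least 28.9-fold, the unconventional myosin myo1cb at least 25.8-fold, the ion transport regulator fxyd1 at least 25.6-fold, the dopamine receptor drd4a at least 22.1-fold, cox5b2 at least 21.5-fold, pacs2 at least 21.2-fold, galnt6 at least 19.4-fold, ankrd50l at least 18.2-fold and soul5 at least 14.2-fold. With 2 UMIs each in OPC-like cells, glipr2l was 420-fold (counting interval 116 to 3468) and cdaa 284-fold (78.5 to 2350) higher. On the other side the 8 genes were led by c1ql4a, a secreted synaptic organizer, and gas6, a ligand of TAM receptors, both with 2 UMIs in members (93.6-fold and 89.0-fold lower). They were followed by cacng4a, sparcl1 (a secreted matrix protein), hpse (heparanase), gfra4b (a GDNF family receptor), syt9b and neto1 (a glutamate receptor auxiliary protein). The AMPA receptor auxiliary subunit cacng4a was at 577, 573 and 409 CPM in OPC-like cells and at 10.2, 7.98 and 14.7 in members (-5.45 ± 0.34), and the synaptotagmin syt9b at 1317, 1288 and 812 against 25.4, 25.9 and 29.4 (-5.30 ± 0.28).

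The premyelinating stage was approached with the 420 cells that had UMIs of both ninj2 and tuba8l3, at least 3 in all, without meeting the oligodendrocyte rule. Their median depth, 2921 UMIs, was against 3043.5 in members. Of these cells 229 also met the OPC rule, and 42 were counted among the OPC-like cells as well. They held 4289, 5735 and 4151 CPM of plp1b, and 59.0, 67.0 and 48.7 of mbpa and 30.7, 61.2 and 44.4 of mpz. Of 5481 genes tested, 1013 (18.5%) were higher in oligodendrocytes and 752 (13.7%) lower, around a median of 0.00 (-0.43 when libraries were scaled by totals alone, where 23.3% of the called genes were higher in place of 57.4%).

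Relative to these cells the sheath list had 7 genes higher and 5 lower of 13. On the higher side zwi was at 70.7, 55.3 and 38.7 CPM in the ninj2 tuba8l3 cells (5.60 ± 0.15), mbpb at 184, 209.7 and 153 (3.48 ± 0.13, adjusted p = 4.50e-44) and elovl1b at 196, 172 and 188 (3.62 ± 0.13). For plp1a, at 448, 434 and 381 CPM there against 298, 327 and 263 in members, the fitted difference was -0.10 ± 0.13 (adjusted p = 0.643), and it passed as lower with libraries scaled by totals alone (-0.54), without the condition on mag and cldnk (-0.60) and without the 294 members that met another class's rule (-1.04). The tetraspanin tspan2a overlapped (3504, 3568 and 3050.0 against 3546, 2993 and 2839): its 0.30 ± 0.10 turned to -0.14 with library totals and to -0.24 without the condition on mag and cldnk, and the call was lost without replicate 1 (0.22) or replicate 3 (0.32). On the lower side ugt8 was at 1280.4, 1220.4 and 1115 CPM in the ninj2 tuba8l3 cells, above every member sum (-1.16 ± 0.12), and cadm4 at 7954, 7465 and 5889 against 483 to 678 in members (-3.18 ± 0.12). Of 10 cholesterol synthesis genes tested 9 were higher, with a list median of 1.40, among them hmgcrb (1.61 ± 0.24) and insig1 (212, 230.1 and 204 CPM against 422, 425 and 370.1, 1.32 ± 0.14).

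Of 10 lineage transcription factors tested against the ninj2 tuba8l3 cells 3 were higher (nkx6.2, tcf7l2 and olig2), 3 lower (nkx2.2a, sox8b and zeb2a) and 4 did not pass, with a median of -0.18. Of all genes 18.5% were higher and 13.7% lower there. The call of tcf7l2 was lost with members of at least 5% marker UMIs (0.56) and with DESeq2 (1.27). The homeobox gene nkx2.2a was at 358, 509.7 and 466 CPM in the ninj2 tuba8l3 cells and at 40.7, 27.9 and 16.8 in members (-3.58 ± 0.21, adjusted p = 7.23e-30), the OPC list's sox6 was at 743, 472 and 406 against 71.2, 37.9 and 42.1 (-3.0 ± 0.18) and sox8b at 111, 93.2 and 60.2 against 10.2, 5.98 and 2.1 (-3.42 ± 0.39). The groups did not overlap for any of these genes. The chromatin factor prdm8, which in zebrafish acts in the switch from motor neuron to oligodendrocyte precursors, was among the 8 genes named for the largest fall, at 1488, 2249 and 1679.8 CPM against 20.3, 59.8 and 40.0 (-5.06 ± 0.16). The transgene's driver gene sox2 was at 915, 1139 and 956 CPM against 91.6, 97.7 and 151 (-2.73 ± 0.15), and gfp itself at 123, 81.6 and 74.5 against 20.3, 7.98 and 18.9 (-2.12 ± 0.31). In the other direction olig2 rose by 0.67 ± 0.11, although its CPM overlapped and the call was lost with library totals and without the condition on mag and cldnk. A single UMI of nkx6.2 was found in the ninj2 tuba8l3 cells. The factors sox10 (-0.22 ± 0.12), myrf (adjusted p = 0.995), olig1 and zeb2b did not pass the test, although sox10 passed as lower with library totals (-0.66) and without the condition on mag and cldnk (-0.63).

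The other genes named against the ninj2 tuba8l3 cells were, on the higher side, tmem237a (at least 124-fold), cx47.1 (at least 90.5-fold), drd4a (at least 55.2-fold) and ttn.1, a titin gene (at least 34.6-fold), none of which had a UMI in those cells, together with cdaa, cd59, csrp1b, tmem125b, glipr2l, the antiviral gene rsad2, the LIM-domain gene fhl3b and the kinase gene wnk4b. The wnk4b gene was at 753, 903 and 778 CPM in members and at 2.36, 5.83 and 8.60 there (7.37 ± 0.23). On the lower side were ubtd1a (at least 13.7-fold) and stard8 (at least 11.5-fold), with no UMI in members, and itgb2, smoc2, uap1l1, gna12a and the galectin gene lgals2a. The lgals2a level was 2092, 4255 and 4326 CPM in the ninj2 tuba8l3 cells and 25.4, 67.8 and 119.9 in members (-5.26 ± 0.15), lowest in replicate 1 on both sides.

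Of 23 receptors and ligands through which oligodendrocytes and axons signal, 9 were higher and 9 lower than in all other cells. Higher were the neuregulin receptor erbb3b (76.3, 33.9 and 31.5 CPM against 0.970 to 1.66, 5.38 ± 0.41), the lysophosphatidic acid receptor lpar1 (176, 149.6 and 98.8 against 4.02 to 6.21, 5.08 ± 0.22), gpr37a, an orphan receptor that in mice times oligodendrocyte maturation (4.33 ± 0.39), ndrg1a (3.64 ± 0.33) and the Nogo gene rtn4a (933, 1089 and 873 against 240.0 to 245, 2.34 ± 0.12). The genes of the Nogo receptor complex rtn4r (-1.61 ± 0.35) and lingo1b (-2.02 ± 0.42) were lower, the first missing the threshold without the replicate block (-1.68) and the second without the members that met another class's rule (-2.91). Against OPC-like cells both receptor genes were lower as well (-4.12 ± 0.38 and -4.30 ± 0.44). Tetraspanins, which organize membrane proteins, differed within the family. The gene cd9b was at 5891, 5707 and 4710.2 CPM in members against 136 to 254 in other cells (5.35 ± 0.14), 1291 to 2280.4 in OPC-like cells (1.61 ± 0.18) and 44.8 to 91.7 in ninj2 tuba8l3 cells (6.60 ± 0.15). Its paralog cd9a was at 45.8, 67.8 and 58.9 CPM against 197 to 280.1 (-1.60 ± 0.18). The gene cd82a was at 4939.6, 4991 and 4624 CPM against 515 to 687 (3.35 ± 0.12), and above the 1395 to 1471 of the ninj2 tuba8l3 cells (2.18 ± 0.11). Against OPC-like cells cd82a did not pass the test. It passed as higher there under some settings, such as cells with at least 2000 UMIs (1.68) or without replicate 1 (0.58), and was -0.11 without the condition on mag and cldnk. For cd9b the members were the highest of these groups and the ninj2 tuba8l3 cells the lowest.

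A pair of genes named after their values were seen encode glutamine synthetase. Glutamine synthetase, which turns glutamate and ammonia into glutamine, is the product of glula and glulb and is best known from astroglia. The glula level was 7654, 8291 and 6918 CPM in members, 2587, 3539 and 3091 in all other cells (1.66 ± 0.11, adjusted p = 3.10e-23), 1995 to 2193 in OPC-like cells (1.92 ± 0.16) and 946 to 1299 in ninj2 tuba8l3 cells (3.26 ± 0.11). Radial-glia-like cells, the astroglia of this tissue, had 9259, 13423 and 9927 CPM, above the members in every replicate, but the fitted difference was -0.26 ± 0.13 (adjusted p = 0.105) and its sign depended on the setting: it passed the threshold as lower under 5 of the settings tried, and was 0.04 and 0.12 under those that left out members with another class's markers and 0.13 with at least 5% marker UMIs. The glulb level was 2050.1, 2251 and 1634 CPM in members and 1842, 2232 and 1836 in radial-glia-like cells (0.24 ± 0.13, adjusted p = 0.136), with overlap, and passed as higher under 4 of the settings tried. OPC-like cells had 70.4 to 103 CPM of glulb (4.52 ± 0.24). After thinning 89.6% of members (94.9% without thinning) and 72.6% of microglia-like cells had a glula UMI. The carbonic anhydrase gene cahz, whose enzyme interconverts carbon dioxide and bicarbonate, was at 249, 518 and 292 CPM against 46.4, 233 and 82.3 in other cells (2.1 ± 0.15), and had a UMI in 25.7% of thinned members (42.4% without thinning) against 0.717% of microglia-like cells. It was at 0 to 30.2 CPM in OPC-like cells (4.48 ± 0.46). Replicate 2 was the highest for cahz on both sides, as it was for the erythrocyte markers, and the part of erythrocyte RNA was not tested.

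Stmn1b, a microtubule-destabilizing protein best known from neurons, was at 5850.3, 6257 and 5019 CPM in members and at 2087, 2763 and 2431 in all other cells (1.58 ± 0.11, adjusted p = 9.32e-22), of which 72.8% met the neuron rule. It was at 1289.8, 1847 and 1739 CPM in ninj2 tuba8l3 cells (2.23 ± 0.11). The groups did not overlap, and 96.3% ± 1.13 of the thinned members (98.6% without thinning) had an stmn1b UMI against 77.1% of other cells and 33.0% of microglia-like cells. Of the 10 neuronal markers tested stmn1b was the 1 that was higher, and 8 were lower: elavl3 was at 758, 756 and 883 CPM against 1411 to 1466 (-0.51 ± 0.11), a call that was lost without the replicate block, and snap25a at 163, 144 and 219 against 410.3 to 600.4 (-1.11 ± 0.14). Of 23 cytoskeletal genes tested 5 were higher and 12 lower, with a median of -0.88 (-0.79 with genes at 0 UMIs set to their bounds). The higher ones were anln (12.7, 21.9 and 16.8 CPM against 2.30 to 4.53, 2.59 ± 0.48), the deacetylase sirt2, a known myelin sheath protein (1.66 ± 0.24), the transport motor kif1b (0.74 ± 0.14), mapta and tubb4b. Without the 294 members that met another class's rule none of these 5 passed the threshold as higher, and 13 of 22 genes were lower. Among those lower were tubb2b (-1.16 ± 0.12) and maptb (-1.21 ± 0.16).

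Of 19 genes of glycolysis and lactate handling, 13 were lower and the other 6 did not pass in oligodendrocytes, as compared with other cells, with a median of -0.88. The glycolytic genes gapdhs (628, 841 and 797 CPM against 1672 to 1998, -0.91 ± 0.12), aldocb (-0.61 ± 0.12) and ldha (-1.12 ± 0.25) and the lactate transporter slc16a3 (-2.72 ± 0.49) fell, and the call of ldha was lost without the condition on mag and cldnk (-0.31). Against the ninj2 tuba8l3 cells 3 of 16 were higher, close to the 18.5% of all genes, with a median of 0.009. With libraries scaled by totals 4 were lower instead. Of 13 genes for iron, ions and pH, 4 were higher, cahz, fth1b (0.80 ± 0.27, lost without replicate 2, at 0.79, or replicate 3, at 0.70), the potassium channel kcnj10a (35.6, 17.9 and 10.5 CPM against 3.40 to 7.54, 2.36 ± 0.44) and the chloride channel clcn2b (3.02 ± 0.52, a call lost without the members that met another class's rule, at 2.72), both of which are known from ion clearance around myelin, and 5 lower, led by sodium pump subunits such as atp1a1b (448, 173 and 252 CPM against 859.7 to 1768, -1.82 ± 0.13) and atp1a3a (-1.45 ± 0.17). The ferritin gene fth1a fell by 0.51 ± 0.13, a call that was lost without the block and without replicate 2 (-0.39).

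Because every fish had been treated with a γ-secretase inhibitor, Notch pathway genes are given for the members, without any comparison to untreated cells. Of 19 receptor, ligand and secretase genes tested against other cells, 2 were higher and 10 lower, with a median of -0.88. The γ-secretase subunits psen2 (1.30 ± 0.44) and psenen (0.64 ± 0.17) were the 2 higher. The call of psen2 was lost under 8 settings, the fits without replicate 2 (1.22) and without replicate 3 (1.21) among them, and psenen came to -0.028 without the 294 members that met another class's rule. The receptor notch3 was at 28, 31.9 and 44.2 CPM against 86.3 to 126 (-1.32 ± 0.21), the ligand dla at 148, 118 and 250.2 against 484 to 636 (-1.44 ± 0.14) and the modifier lfng fell by 1.82 ± 0.17. Of 11 effector genes of the her and hey families 8 were lower and the other 3 did not pass, among them her4.2 (20.3, 79.8 and 96.7 CPM against 155, 308 and 342, -1.71 ± 0.18) and her6 (-1.78 ± 0.28). Within the members the levels of notch3, dla and her4.2 fell with the share of marker UMIs, as given further below. Of the members' 236 dla UMIs, 8 members held 50%. In the comparison with OPC-like cells 1 of 8 pathway genes was higher and 2 were lower, beside 18.2% and 19.7% of all genes. No effector was tested there. The effectors summed to 64.5 to 110 CPM in OPC-like cells and 78.9 to 196 in members, with overlap. Against the ninj2 tuba8l3 cells 0 of 11 pathway genes and 0 of 3 effectors passed edgeR's test in either direction, where 32.2% of all genes did, with 0 at an unadjusted p under 0.05 and 0 by DESeq2. With libraries scaled by totals 1 gene of each list was lower there. Against the 1951 radial-glia-like cells, where Notch signalling is known to hold stem cells quiescent, 8 of 15 and 7 of 7 were lower. Of 7990 genes 24.6% were lower there, around a median of -0.02. In those cells notch3 was at 284 to 464 CPM (-3.03 ± 0.22) and her6 at 197 to 212 (-3.42 ± 0.25). The effector her4.1 is among the markers that chose the radial-glia-like cells and was not tested there. Close paralogs can share reads, so the effector count is not independent of that choice.

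In the same comparison with radial-glia-like cells 1865 genes (23.3%) were higher in oligodendrocytes. The 12 with the largest rise were ecscr, at least 146-fold higher with no UMI in radial-glia-like cells, abtb2a and galnt6, also with none, and crp1, cx47.1, htra1a, cd59, csrp1b, myo1cb, elovl7a, zwi and mybphb. The desaturase scdb was at 13.9 to 33.7 CPM there (6.09 ± 0.19). The 8 genes named on the other side, phyhd1 (at least 21.4-fold lower), cd81b (20.1), nog3 (19.2), pimr110 (16.8), ndnf (14.3), nr2f1b (13.3), bgnb (12.3) and msrb2 (11.6), had no UMI in oligodendrocytes, so these are bounds. The sodium pump gene atp1a1b differed as well, at 2999.8 to 5561 CPM in radial-glia-like cells (-3.62 ± 0.15).

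Immediate early genes respond within minutes to activity or to the stress of dissociation. They were mostly lower in members than in all other cells: of 19 tested, 13 were lower and 2 higher, with a median of -0.96. The gene fosab was at 234, 592 and 393 CPM against 1200.2, 1553 and 1696 (-1.56 ± 0.14), junbb at 78.9, 325 and 159.8 against 460.0 to 1095 (-1.59 ± 0.14) and ier2a at 23.1 to 38.2 against 133 to 172 (-1.92 ± 0.21). After thinning 16.5% of members (33.1% without thinning), 55.7% of other cells and 82.1% of microglia-like cells had a fosab UMI. The higher ones were klf6a (1.05 ± 0.16, a call lost without the members that met another class's rule) and jun (0.33 ± 0.13). The call of jun was lost under 10 settings, at 0.23 to 0.45 in the fits without 1 replicate each, and its value turned to -0.93 without the 294 members that met another class's rule and to -0.025 with library totals. Against OPC-like cells 6 of 12 immediate early genes were lower and 2 higher, beside 19.7% and 18.2% of all genes. Against radial-glia-like cells 10 of 18 were lower and 5 higher, beside 24.6% and 23.3%. Against ninj2 tuba8l3 cells 4 of 15 were lower and 3 higher, beside 13.7% and 18.5%, with a median of 0.06. The list summed to 2659 to 2997 CPM in those cells and 1798 to 2676 in members, with overlap. Of 11 proliferation genes 9 were lower than in all other cells and the other 2 did not pass. Among the lower were mki67, with 12 UMIs in all members (5.09, 12.0 and 8.41 CPM against 44.6 to 68.4, -2.28 ± 0.35), and rrm2 (-1.14 ± 0.18), whose CPM overlapped and whose call was lost without the replicate block (-1.13). Against radial-glia-like cells 8 of 9 proliferation genes tested were lower and 0 higher, where 24.6% of all genes were lower. Few could be tested against the lineage references. With OPC-like cells 2 of 4 were higher and 0 lower, where 18.2% of all genes were higher. With ninj2 tuba8l3 cells 2 of 6 were higher and 0 lower, where 18.5% of all genes were higher. These sets are too small to be set against those shares. The list summed to 224 to 536 CPM in members, 143 to 328 in OPC-like cells and 186 to 775 in ninj2 tuba8l3 cells, with overlap. Of the members' 212 pcna UMIs, 9 members held 50%.

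The members differed among themselves in the share of the 5 marker genes. Each replicate's members were put into 3 classes of equal size by the share of the 5 marker genes, and levels were taken as CPM of all UMIs outside those genes. This is a description with no test, since the classes come from the same cells, and it was made after values were seen. From the lowest to the highest class cd59 went from 23068 to 46735 CPM up to 104192 to 151517, glula from 2458 to 4088 up to 12085 to 16269.5, stmn1b from 3171 to 4446 up to 8294 to 9207 and cd9b from 1644 to 2904 up to 9853 to 10042. The lowest and highest classes did not overlap for any of these genes. The carbonic anhydrase gene cahz went the same way, from 68.2, 220.0 and 134 CPM to 573, 1025 and 738. Some transcripts of radial glia, neurons and the Notch pathway went the other way. The radial glia gene cx43 went from 327 to 788 CPM down to 29.6 to 53.3, fabp7a from 1251 to 1533 down to 298 to 316, snap25a from 246 to 435 down to 59.2 to 82.6, dla from 286 to 546 down to 0 to 16.5 and sox2 from 167 to 307 down to 24.8 to 29.6. The receptor notch3 went from 75.8 to 100.3 CPM down to 0 to 8.89, and her4.2 from 45.5 to 217 down to 0 to 8.89. The gfp transgene was at 20.5 to 53.1 CPM in the lowest class and had no UMI in the highest.

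Several of the transcripts that fell sat in few members: 4 members held 50% of the 291 cx43 UMIs, and 4 held 50% of those of slc1a2b, the astroglial glutamate transporter. For dla 8 members held 50%, for sox2 12 and for snap25a 14. By contrast 107 members held 50% of the plp1b UMIs and 78 that of glula. The radial glia rule was met by 7, 7 and 9 members of the lowest class in the 3 replicates and by 1, 1 and 2 of the highest. The lineage genes sox10 and ninj2 overlapped between these classes, with sox10 at 362 to 523 CPM in the lowest and 444 to 729 in the highest, and ninj2 at 747 to 1069 and 731 to 1217.

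The gene mbpb fell with the marker share, from 1332 to 4602 CPM in the lowest class to 326 to 613 in the highest, and its UMIs sat in few members: 163 of the 388 had none, while 19 held 50% of all 2055. The 35 members in which mbpb made up at least 0.4% of UMIs (16, 8 and 11 per replicate) held 72.2% of them. The limit was set after values were seen and 13 members lay between 0.2% and 0.4% and 9 between 0.4% and 0.5%. The values for these cells are a description, with no test. Their median depth was 5445 UMIs and 1838 genes, against 2875 UMIs and 1104 genes for the other 353 members, and the 5 markers took a median of 8.72% of their UMIs against 15.7%. Of the 35 the radial glia rule was met by 1, the neuron rule by 33, the OPC rule by 9 and the microglia rule by 0. Of the other 353 members 35, 254, 44 and 0 met these rules in the same order. The rules count UMIs, so the deeper cells can meet them more readily.

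**Figure D3:**
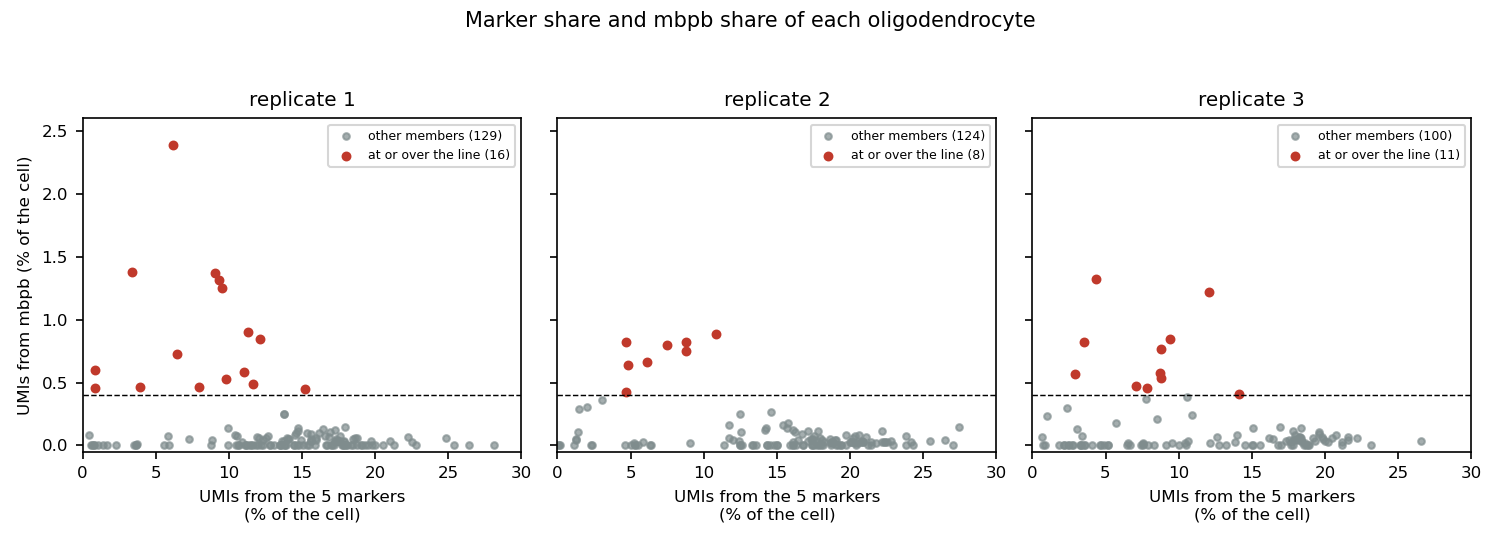
Percent of each oligodendrocyte's UMIs from mbpb (y axis) against the percent from the 5 marker genes (x axis), 1 point per cell and 1 panel per replicate, with a dashed line at 0.4% mbpb. The 35 cells at or over the line (red, 16, 8 and 11 per replicate) hold 72.2% of all mbpb UMIs, and 163 of the other 353 (grey) have none.

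**Figure D4:**
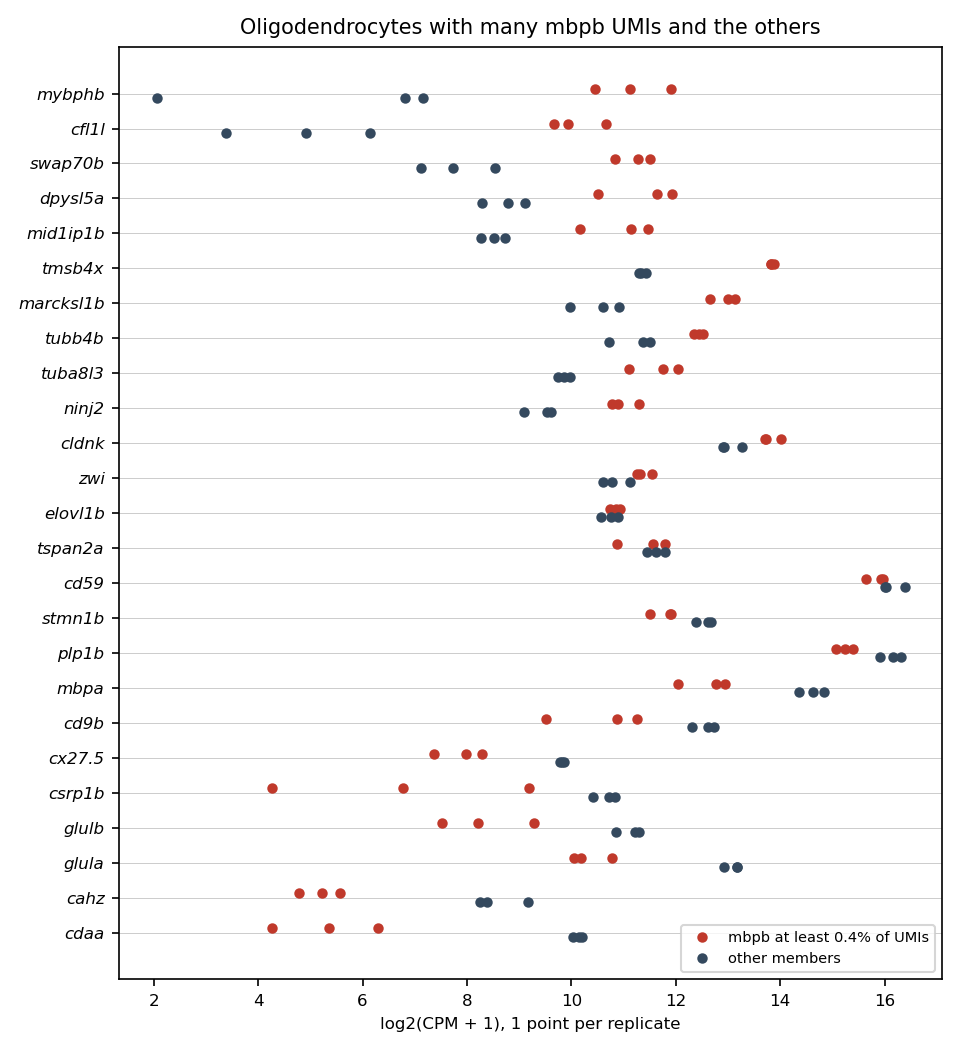
Level of 25 genes, as log2(CPM + 1), in the 35 members with at least 0.4% mbpb (red) and in the other 353 members (dark), with 1 point per replicate. The genes mybphb, cfl1l, tmsb4x and dpysl5a lie above the other members in every replicate, and glula and cdaa below.

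The myelin genes themselves were split in the 35 members rich in mbpb. The rule genes mbpa (4203 to 7917 CPM against 21021 to 29296 in the other members), plp1b (34243 to 43042 against 61524 to 82059) and mpz (11566 to 19632 against 23783 to 29579) were lower in every replicate, whereas cldnk (13398 to 16604 against 7688 to 9916) and mag (358 to 566 against 141 to 261) were higher. Zwi was at 2459 to 2975 CPM against 1563 to 2231, and cd59 at 51126 to 64155 against 66144 to 85584. The lineage genes ninj2 (1767, 1900.3 and 2521 CPM against 544, 739 and 776), tuba8l3 (4211, 2211 and 3439 against 853, 1005 and 929), plp1a (624 to 700.2 against 195 to 282), ugt8 (603 to 731 against 328 to 376) and olig2 (1297 to 1852 against 868 to 959.5) lay above the other members in every replicate. The ninj2 tuba8l3 cells had 1115 to 1280.4 CPM of ugt8, above the 35 cells, but less plp1a (381 to 448) and olig2 (759 to 942). Their ninj2 level, 2651 to 2943 CPM, is no comparison, since ninj2 UMIs chose those cells. The neuronal gene stmn1b was lower in the 35 cells (2910 to 3852 CPM against 5349 to 6558) and elavl3 higher (1036 to 1243 against 692 to 853).

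The genes that follow, several of them of the cytoskeleton, were picked after their values were seen. Mybphb, a myosin-binding protein, was at 1395, 3837 and 2241 CPM against 3.15, 141 and 112 in the other members, and 10 members held 50% of its UMIs. The cofilin gene cfl1l, which severs actin, was at 810.3, 1626 and 980.3 against 9.44, 69.4 and 29.2, and the actin-binding swap70b at 1833, 2905 and 2489.8 against 138, 369 and 212. The actin-sequestering thymosin tmsb4x was at 14571, 14508 and 15172 CPM against 2586, 2758 and 2516, more than in the ninj2 tuba8l3 cells (3734 to 4270.4). The collapsin response mediator dpysl5a was at 1461, 3892 and 3206 against 311, 553 and 442, also above the 295 to 402 of the ninj2 tuba8l3 cells. Marcksl1b, a membrane-actin linker, was at 6450.2 to 9009.9 against 1007 to 1927, and tubb4b at 5226 to 5871 against 1686 to 2912, both under the ninj2 tuba8l3 cells (16189 to 19472 and 10194 to 11616). For tmsb4x and dpysl5a the 35 cells were thus above both the other members and the ninj2 tuba8l3 cells, and for marcksl1b and tubb4b they lay between. The 15 genes with the largest excess also held rhoq and anxa13l, the chaperone hspa5 (654 to 1937 CPM against 88.1 to 190.3), the amino acid transporter slc1a4, the lipid transporter mfsd2ab and the heme synthesis gene hmbsa.

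Other genes were lower in the 35 cells. Glula was at 1156, 1059.8 and 1758 CPM against 9193, 9177 and 7724, glulb at 183 to 624 against 1843 to 2505, cahz at 26.6 to 46.7 against 302 to 577 and cdaa at 39.8, 18.3 and 77.8 against 1038, 1179.6 and 1131. Tmem237a and slc25a48 had 2 UMIs each in the 35 cells against 345 and 336. The connexin cx27.5 was at 164 to 311 CPM against 885 to 933, csrp1b at 18.3 to 584 against 1359 to 1816 and cd9b at 731 to 2443 against 5064 to 6839. Cx43, the radial glia connexin, was at 18.3 to 53.1 against 163 to 365, but 4 of all members held 50% of its UMIs. Over all named genes with at least 10 UMIs in each replicate on the higher side, 283 of 633 (44.7%) lay above the other members in every replicate with no overlap and 466 of 3017 (15.4%) lay below. Each share was filtered through the side where its genes are high, which favours such genes. The 35 cells held 194275 UMIs and the other members 1175937, so the 2 shares cannot be compared with each other. No mki67 UMI was found in the 35 cells and 12 in the other members, too few for a comparison between groups of such unlike UMI totals. The pcna level was 15.6 to 53.1 CPM against 88.1 to 253, and 9 of all members held 50% of its UMIs.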

How the data were processed

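The deposited files hold raw UMI counts per gene and cell barcode for each of the 3 libraries (per the file headers and the submitters' processing notes, Cell Ranger 3.0.1 on GRCz11), with barcodes called as cells by the authors' run. UMIs, rather than reads, were counted, so PCR copies of 1 molecule count once, and levels refer to 3′ ends. Transcripts of close paralogs can share reads, and the values of such pairs are uncertain. Of the 29077 gene identifiers, 743 repeat a symbol, and such a symbol was taken at the identifier with the most UMIs.

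Of 19697 barcodes, 19102 had at least 200 genes and at most 10% mitochondrial UMIs. The median was 1541 to 1676 UMIs per barcode. UMIs were summed per replicate for the oligodendrocytes and for each reference group, and tested with edgeR 4.0.16 in R 4.3.3 (TMM factors, filterByExpr, quasi-likelihood test, replicate as a block, Benjamini-Hochberg adjustment, threshold 0.05). Values after ± beside a log2 fold change are its SE, taken as its size over the square root of F. The 5 to 31 genes that chose either side of a comparison were fitted but not counted as called. The block pairs the 2 sums of 1 library, which come from the same fish, and their deviations correlated at 0.0485 to 0.434. P-values set the difference between the 2 cell groups against its spread over sorting days, after shifts that both sums of a day share are taken out. The fit estimates that spread with information shared over genes. An SE or p-value therefore does not reflect a gene's own spread over days alone. CPM are plain shares of a group's UMIs, while fold changes rest on the TMM scale. A fold against a group without UMIs was set against a floor of 3 UMIs over the group. Exact 95% binomial intervals cover counting error only.

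Reference cells had at least 3 markers of 1 class, at least 4 UMIs of these, and met no other class's rule. Shares of cells with a UMI were taken after thinning each cell to 1000 UMIs (numpy 2.4.6, Python 3.11.15). Doublets were not removed, since Scrublet's own threshold (scanpy 1.11.5) marked 2, 0 and 0 cells. An alternative left out the 497, 292 and 214 cells with the highest scores. On simulated counts with 4-fold changes the test found 99% to 100%, and with 2-fold changes 68.4% to 82%. The changed genes had at least 10 expected UMIs in the smallest sum. All genes had the same simulated dispersion, and both sums of a replicate shared the same shift. These rates therefore do not carry over to genes with fewer UMIs or a wider spread. Genes are named by list membership or as the 12 largest rises and 8 largest falls among called genes whose sign was the same in all replicates and that had at least 10 UMIs in each replicate on the higher side, leaving out symbols that carry no gene name. The members, the gene lists and the rules were chosen with earlier results of these data known, and the genes described for the classes of marker share and for the members rich in mbpb were chosen after their values were seen. Alternatives covered cell filters, member rules, scaling, the block, DESeq2 1.42.0 and leaving out each replicate.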

Additional observations from a re-analysis of the deposited data

How the results depend on the processing

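Counts of genes past the threshold depended most on the member set and the scaling. With the 294 members left out that met another class's rule, 656 genes were higher than in all other cells, 288 were higher and 341 lower than in OPC-like cells, 532 were higher than in ninj2 tuba8l3 cells and 767 were higher than in radial-glia-like cells, and the share of members was 0.514%. That setting leaves 94 members, so fewer UMIs are tested. With library totals alone 4411 genes were lower than in all other cells, and 625 were higher and 2057 lower than in ninj2 tuba8l3 cells. Median log2 fold changes shifted by -0.35, -0.05, -0.43 and -0.25 in the comparisons with all other, OPC-like, ninj2 tuba8l3 and radial-glia-like cells. The share of called genes that were higher went from 43.6% to 24.9%, 48.1% to 45.5%, 57.4% to 23.3% and 48.7% to 35.5%. It was 26.4% (all other cells) and 35.0% (radial-glia-like cells) without those 294 members, 54.9% with DESeq2 (all other cells) and 59.4% among cells with at least 2000 UMIs (OPC-like cells). DESeq2 found 1369 genes lower than in all other cells, 502 higher than in OPC-like cells, 564 higher and 314 lower than in ninj2 tuba8l3 cells, and 1208 higher and 1240 lower than in radial-glia-like cells. Without the replicate block 1550 genes were lower than in all other cells and 431 lower than in ninj2 tuba8l3 cells, while the other 6 counts moved by less than 1.5 times. Among cells with at least 2000 UMIs 343 genes were higher and 234 lower than in OPC-like cells. Of 3 alternatives chosen after seeing the data, OPC-like cells that could also meet the neuron rule gave 1240 genes higher and 1412 lower.

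Leaving out each replicate in turn gave 1444 to 1712 genes higher and 1546 to 2237 lower than in all other cells, with 1546 without replicate 2. It gave 633 to 916 and 688 to 1040 against OPC-like cells, 833 to 900 and 547 to 664 against ninj2 tuba8l3 cells, and 1510 to 1848 and 1534 to 1863 against radial-glia-like cells. The share of members was 2.36% with at most 5% mitochondrial UMIs, 1.76% with a loess filter of genes on UMIs and 2.6% without the condition on mag and cldnk. It was 1.24% with members left out that met the radial glia or microglia rule or the neuron rule counted without stmn1b, and 1.73% with at least 5% marker UMIs. Directions of called genes turned for jun against all other cells (-0.93 without the 294 members, -0.025 with library totals), psenen against all other cells (-0.028 without the 294 members), myrf against OPC-like cells (-0.18 among cells with at least 2000 UMIs) and tspan2a against ninj2 tuba8l3 cells (-0.24 without the condition on mag and cldnk, -0.14 with library totals). Of values that did not pass, ninj2 (0.12 to -1.09), tuba8l3 (0.30 to -1.23) and ugt8 (0.14 to -1.10) turned and passed as lower against OPC-like cells among cells with at least 2000 UMIs. Over the 126, 50, 51 and 33 genes followed through the settings, 2277 of 2389, 929 of 959, 918 of 948 and 601 of 626 values kept their direction and their side of the threshold. Where not stated, the cause was not tested.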
